A study of Oryza sativa Japonica Group with 20 samples.

Results

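The H3K27me3 regions of rice chromosome 11 are described here, with the stretch between 4.5 and 6.5 Mb set beside the rest of the chromosome. The peaks of all 6 H3K27me3 libraries were merged wherever they overlapped or touched, and every merged region on chromosome 11 was kept. This gave 1359 of 15519 regions, of which 90 lay in the stretch and 1269 in the rest of the chromosome. The other 11 chromosomes held 14153 regions, and the remaining few lay on sequences outside the 12 chromosomes. The members were chosen by the deposited peaks themselves, and the stretch was selected on the slr1 difference in covered length, so values of slr1 in the stretch are a description without a test.

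H3K27me3, trimethylation of lysine 27 of histone H3, is written by Polycomb repressive complex 2 and is found over genes kept silent in a given cell or stage. In plants it commonly spans gene bodies, either as short patches over single genes or as broader blocks over neighbouring genes. Rice has a DELLA protein called SLR1, a nuclear repressor of growth that is degraded when the hormone gibberellin (GA) is perceived.

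The series covered rice seedlings (Oryza sativa, Japonica group) grown in diluted Murashige and Skoog medium with 14 h of light at 28 °C and 10 h of dark at 24 °C. Chromatin immunoprecipitation and sequencing (ChIP-seq) of H3K27me3 gave 2 libraries of slr1, labelled as an SLR1 knockout and 12 days old per the design text. It gave 2 libraries of wild-type seedlings labelled GA, given 100 uM GA for 6 h, and 2 of wild-type seedlings labelled CK, the control. RNA sequencing gave 3 slr1 and 3 wild-type (WT) libraries, the wild type named NIP in the titles, at 12 days, and 3 libraries of wild type given 100 uM GA for 1 h with 3 untreated CK libraries. The sources used here give neither the age of the GA and CK seedlings nor the kind of slr1 mutation. The 2 input libraries were not analysed here, so a change in the DNA itself and a change in the mark cannot be told apart. No label says whether replicates came from separate plants, so the spread between them may be technical.

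The peak names inside the files went against the labels of the wild-type libraries. Peaks of both libraries labelled CK carry the word 6h in their names, and peaks of both labelled GA carry the word CK. Peaks of the slr1 libraries carry j3. The labels are followed throughout. If the peak names are right, every direction of GA against CK turns round. All 4 libraries are wild type by genotype label, so slr1 was set against each label separately and against all 4 together.

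The authors' peak lists cover 1 library each. Across the libraries they hold 11699 to 13640 peaks and cover 21.3 to 27.8 Mb in all. Fold is the authors' enrichment of a peak over its local background, averaged here with weights for peak length. The weakest peaks of the lists had −log10 q values of 1.00 to 1.03. Read depth behind the peaks is unknown, since the lists give no counts.

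Chromosome 11 held 8.46% and 8.28% of the covered length of the slr1 libraries, 8.32% and 8.26% of that of the GA libraries, and 8.35% and 8.49% of that of the CK libraries. Its covered length was 2.35 and 1.77 Mb in slr1, 1.87 and 1.99 Mb in GA, and 2.09 and 2.30 Mb in CK. The slr1 replicates lay farthest apart, on either side of all 4 other libraries. Length-weighted fold on chromosome 11 was 3.79 and 3.39 in slr1, 3.62 and 4.01 in GA, and 4.05 and 4.19 in CK. In each of the 6 libraries this was below the fold on the other chromosomes, which was 3.97 and 3.52 in slr1, 3.72 and 4.11 in GA, and 4.20 and 4.35 in CK.

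The merged regions of chromosome 11 had a median length of 1152 bp (quartiles 615.5 and 2320.5 bp), against 1166 bp on the other chromosomes. The 121 regions of at least 5 kb were 8.90% of the regions and 40.5% of the merged length. The longest region, chr11:25808321-25867646, spans 59326 bp. Peaks covered 59326 and 58072 bp of it in slr1, 53868 and 55802 bp in GA, and 54180 and 58222 bp in CK. All 10 regions with the largest product of covered length and fold in CK were marked in every library. Next in that order were chr11:2873473-2897240, chr11:11093301-11118769, chr11:3869148-3894900 and chr11:4428105-4453750. The build of these coordinates is unstated (not given in the sources used here), and no annotation was matched to them, so no gene is named for a region.

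A region counted as marked in a library when at least 1 base of a peak of that library lay in it. Of the chromosome 11 regions, 722 (53.1%) were marked in all 6 libraries, against 58.5% over all regions. That share was the lowest of the 12 chromosomes. A further 252 (18.5%) were marked in 1 library only, against 15.0% over all regions, and 132 of these were seen only in slr1 replicate 1. Regions marked in all 6 had a median length of 2066.5 bp, and those in 1 library 390 bp. The regions seen in 1 library were thus mostly short, and slr1 replicate 1 supplied most of them. A region spans the peaks of every library that marks it, so further libraries can only lengthen it.

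The comparison of slr1 with CK set the mark in the SLR1 knockout beside that in control wild type. The slr1 seedlings were 12 days old, and the age of the CK and GA seedlings is not given. A difference by genotype thus cannot be told apart from one by age or experiment, against CK or against GA. On chromosome 11, 78 regions (5.74%) were marked in both CK libraries and neither slr1 library, against 5.44% over all regions, so the chromosome as a whole was near the background. Of these, 23 lay in the stretch, 25.6% of its regions, and 55 in the rest, 4.33%. Without slr1 replicate 1 the count was 188 (25 in the stretch), and without CK replicate 1 it was 132 (30 in the stretch). Leaving out a library drops 1 condition of the pattern, which by itself can only raise the counts. With any 1 slr1 or CK library left out, the count in the rest of the chromosome moved from 55 to between 66 and 163. That in the stretch moved from 23 to between 25 and 30. No share over all regions is given for these runs, so they do not set the stretch apart.

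In the other direction, 27 regions (1.99%) were marked in both slr1 libraries and neither CK library, against 1.27% over all regions. The stretch held 5 of them. This count was 175 without slr1 replicate 2 and 48 without CK replicate 2. Against the GA libraries, 35 chromosome 11 regions were marked in both slr1 libraries and neither GA library (1.97% over all regions), and 57 in both GA libraries and neither slr1 library (3.54% over all regions).

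Set against all 4 wild-type libraries, 46 chromosome 11 regions (3.38%) were marked in every CK and GA library and in neither slr1 library, against 2.61% over all regions. The stretch held 16 of these 46 (34.8%) and 6.62% of all regions of the chromosome. Within the stretch they were 17.8% of the regions, against 2.36% in the rest of chromosome 11 and 2.54% on the other chromosomes. Leaving out each library in turn gave 16 to 18 such regions in the stretch (17.8% to 20%) and 32 to 106 in the rest of the chromosome (2.52% to 8.35%). Over all regions the shares were 2.89% to 7.58%. The 106 and the 7.58% were without slr1 replicate 1. With peaks of a −log10 q of at least 5 only, 10 of 46 regions in the stretch (21.7%) had this pattern, against 7.48% in the rest of the chromosome and 7.86% over all regions. These leave-outs and this stricter count were chosen after the data were seen.

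In the opposite pattern, 23 chromosome 11 regions (1.69%) were marked in both slr1 libraries and none of the other 4, against 0.902% over all regions. That share was the highest of the 12 chromosomes, and 5 of the 23 lay in the stretch. Chromosome 3 had the only share of regions marked in all 4 and neither slr1 library, 3.40%, above the 3.38% of chromosome 11.

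**Figure D1:**
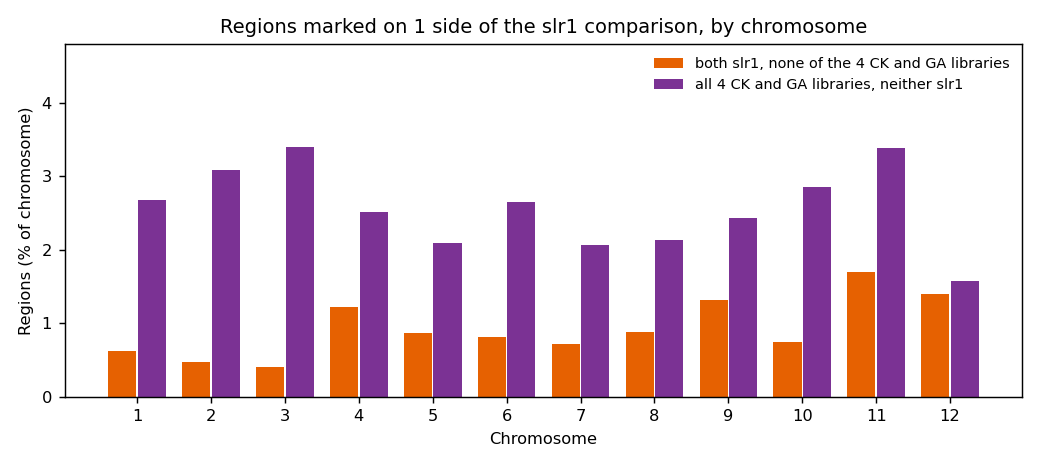
Percentage of the merged H3K27me3 regions of each chromosome (x axis, chromosome number) marked in both slr1 libraries and none of the 4 CK and GA libraries (orange), and in all 4 CK and GA libraries and neither slr1 library (purple). Chromosome 11 stood at 1.69% and 3.38%.

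Along the chromosome, covered length was counted in 30 windows of 1 Mb. Window medians were 66.7 and 51.1 kb in slr1, 56.6 and 59.1 kb in GA, and 58.5 and 67.8 kb in CK. In every library the lowest window was that from 12 to 13 Mb, with 4.51 and 2.07 kb in slr1, 3.07 and 2.92 kb in GA, and 2.41 and 2.54 kb in CK. In every library the highest was that from 18 to 19 Mb, with 182 and 134 kb in slr1, 126 and 135 kb in GA, and 148 and 164 kb in CK. Length-weighted fold had window medians of 3.72 and 3.38 in slr1, 3.59 and 3.99 in GA, and 4.03 and 4.20 in CK.

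**Figure D2:**
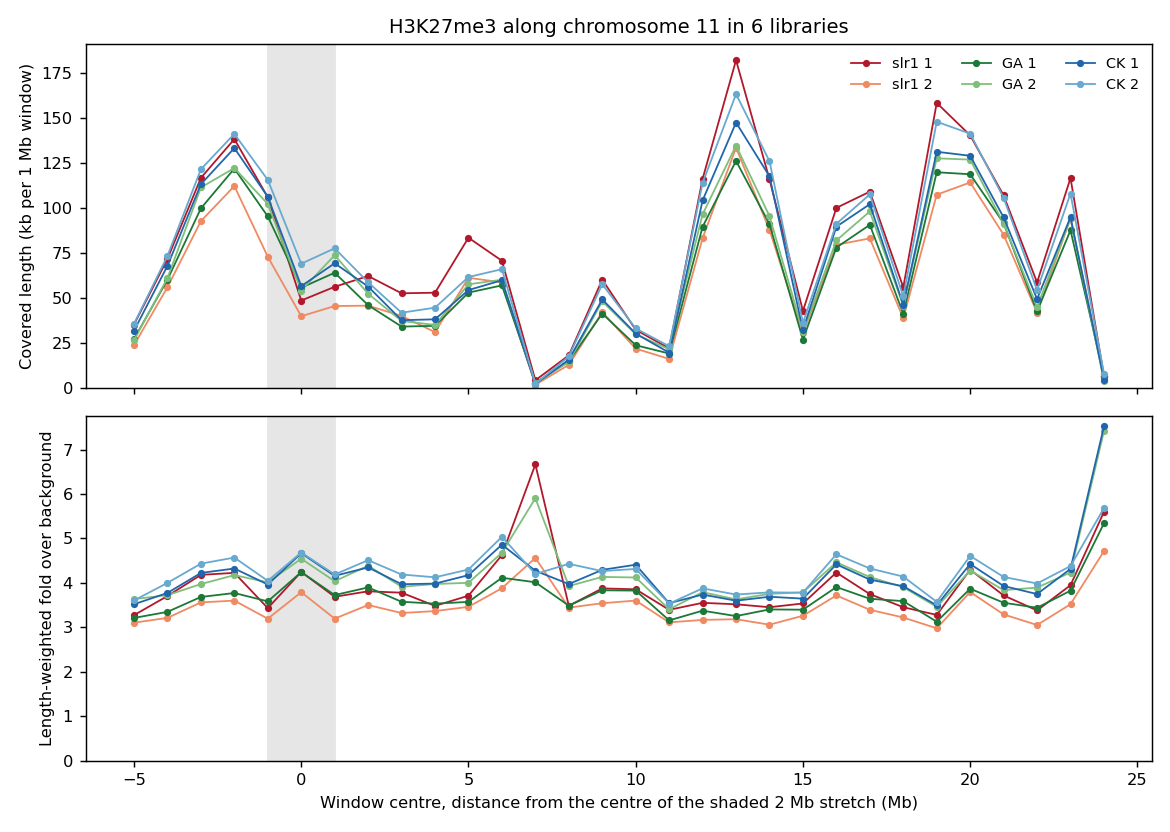
Covered length (upper panel, kb per 1 Mb window) and length-weighted fold over background (lower panel) along chromosome 11, by distance of the window centre from the centre of the stretch (Mb), 1 line per library. The shaded band is the stretch. In the 5 to 6 Mb window slr1 covered 48.8 and 40.1 kb, below all 4 other libraries (54.4 to 69.3 kb).

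The 1 Mb windows that overlap the stretch were as follows, the first and last of them lying partly outside it. From 5 to 6 Mb the covered length was 48.8 and 40.1 kb in slr1, 55.9 and 54.4 kb in GA, and 56.8 and 69.3 kb in CK. From 6 to 7 Mb it was 56.5 and 45.8 kb in slr1, 64.3 and 74.0 kb in GA, and 69.5 and 77.8 kb in CK. In both windows each slr1 library was below all 4 others. Over all chromosomes this held for 4 of 379 windows (1.06%), so chromosome 11 held 2 of the 4. Those 2 windows overlap the stretch, which was selected on the slr1 difference, so this count is a description only. In the second of these windows the difference also lay past the end of the stretch, in chr11:6500001-6600000, with 6.29 and 4.42 kb in slr1, 12.6 and 15.7 kb in GA, and 16.7 and 17.3 kb in CK. From 4 to 5 Mb slr1 overlapped with GA, at 106.2 and 73.2 kb in slr1 and 95.6 and 102.5 kb in GA. Both CK libraries, at 106.5 and 115.9 kb, were above each slr1 and GA library there, 1 slr1 library only just below.

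Each window was then scaled by the covered length of its library on the other 11 chromosomes, and windows with a CK mean of at least 10 kb were ranked. Of these 361 windows, the 2 with the lowest ratio of slr1 to CK were those from 6 to 7 Mb (0.740) and from 5 to 6 Mb (0.754) of chromosome 11. The same windows were the 2 lowest for slr1 to GA, at 0.705 and 0.767. The window from 4 to 5 Mb had a slr1 to CK ratio of 0.851. The median ratio was 0.999 over the 28 ranked windows of chromosome 11 (SD 0.122) and 0.987 over the 333 windows elsewhere (SD 0.103). GA over CK in the windows starting at 4, 5 and 6 Mb was 0.997, 0.983 and 1.05. The slr1 libraries were thus low there against either label, and the GA ratios lay close to 1. The stretch was selected on the slr1 difference in these same libraries, so the low ranks of its windows are no independent result.

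On the scaled values, 7 chromosome 11 windows had both slr1 libraries above all 4 others (23.3%, against 20.1% over all windows). The ratio was highest from 10 to 11 Mb (1.32, the sixth highest of the 361) and next from 8 to 9 Mb (1.24). Another 5 windows had both slr1 libraries below all 4 (16.7%, against 19.5%). Both shares were near the background.

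**Figure D3:**
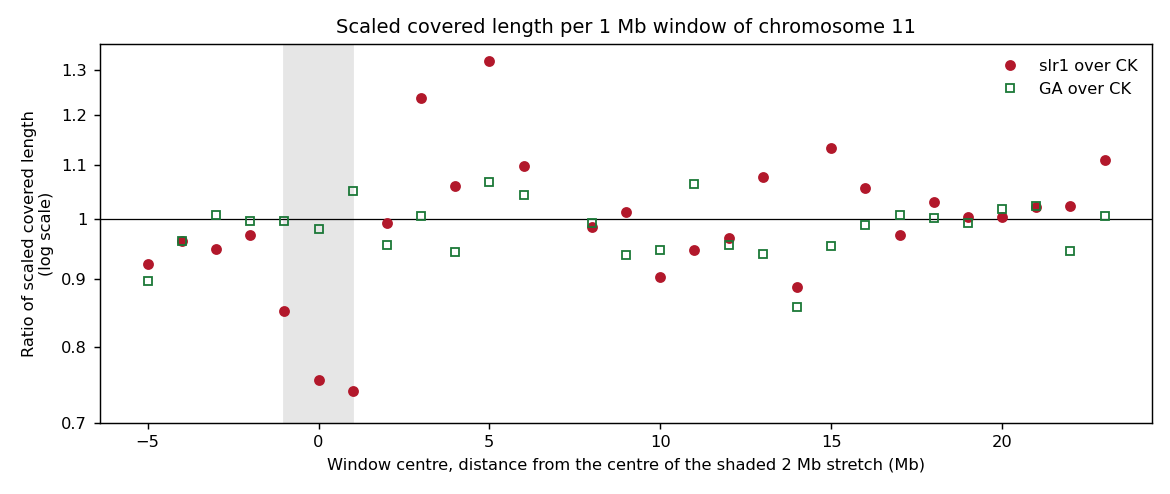
Ratio of scaled covered length per 1 Mb window of chromosome 11 (log scale), slr1 over CK (filled circles) and GA over CK (open squares), by distance of the window centre from the centre of the stretch (Mb, shaded). The slr1 ratio was 0.754 and 0.740 in the windows starting at 5 and 6 Mb, where the GA ratio was 0.983 and 1.05.

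Inside the stretch, peaks covered 109 and 86.2 kb in slr1, 118 and 122 kb in GA, and 125 and 147 kb in CK. This was 4.66% and 4.88% of the covered length of chromosome 11 in slr1, 6.30% and 6.14% in GA, and 5.96% and 6.39% in CK. By that share both slr1 libraries lay below all 4 others, and the GA and CK libraries overlapped. Length-weighted fold in the stretch was 3.92 and 3.51 in slr1, 3.92 and 4.23 in GA, and 4.31 and 4.38 in CK, and in each library it was above the fold in the rest of the chromosome.

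The covered length of the stretch was split by the pattern of the regions, which fixes the 0 kb of the patterns defined by an absent peak. The 33 regions marked in all 6 libraries covered 94.6 and 78.9 kb in slr1, 87.8 and 90.1 kb in GA, and 93.3 and 104 kb in CK, with overlapping groups. Their median log2 ratio of covered length, slr1 over CK, was -0.06, against -0.08 for the 689 such regions in the rest of the chromosome. For fold it was -0.19, against -0.24. Of the 33, 12 (36.4%) were shorter in both slr1 libraries than in both CK libraries, against 34.4% over all shared regions, and 1 (3.03%) was longer in both, against 8.08%. In GA against CK, 10 of the 33 (30.3%) were shorter in both libraries, against 43.2%, and 1 was longer, against 4.99%. The 16 regions marked in all 4 wild-type libraries and neither slr1 library covered 23.0 and 21.4 kb in GA, and 21.5 and 26.6 kb in CK. The 5 regions of the opposite pattern covered 5.26 and 4.61 kb in slr1. The remaining 36 regions covered 9.47 and 2.76 kb in slr1, 6.97 and 10.6 kb in GA, and 9.97 and 16.1 kb in CK.

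The 16 regions marked in all 4 wild-type libraries and neither slr1 library ranged from weak to strong in CK. The weakest of them by fold, chr11:6452218-6453552, had 2.07 and 1.96 in CK, close to the lowest fold of any chromosome 11 peak in CK (1.82 and 1.84). Their median length was 1184 bp and their median fold in CK 3.48, against 739.5 bp and 2.30 for the 30 regions of the same pattern in the rest of the chromosome. The 33 regions of the stretch marked in all 6 libraries were longer and stronger, with a median length of 1997 bp and median folds of 4.09 and 4.22 in CK. The longest of the 16 measured 5603 bp, against 2072 bp elsewhere on chromosome 11.

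The 2 largest by covered length times fold were close together. In chr11:5944378-5949159 peaks covered 0 bp in both slr1 libraries, 4691 and 3451 bp in GA, and 3899 and 4708 bp in CK, with folds of 5.41 and 5.45 in GA, and 5.94 and 6.18 in CK. A peak absent from a list shows that none passed the authors' threshold there, not that the mark is absent. In chr11:5998125-6003727 they covered 0 bp in both slr1 libraries, 5455 and 4777 bp in GA, and 4767 and 5603 bp in CK. Its folds were 4.17 and 4.98 in GA, and 4.97 and 4.92 in CK. Neither region had any peak in slr1, and both stood well above the weakest peaks of the lists. The short region chr11:4940641-4941638 had 0 bp in both slr1 libraries and folds of 5.08 and 6.97 in GA, and 6.29 and 6.91 in CK.

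The longest run of neighbouring chromosome 11 regions without a peak in either slr1 library was 7 regions long, chr11:4969383-5064462, and lay in the stretch. In the rest of the chromosome the longest such run in slr1 was 3 regions. It was 5 in GA and 7 in CK, both outside the stretch. Among the 7 regions of the slr1 run, chr11:4969383-4970055, chr11:5014461-5016982 and chr11:5063244-5064462 were marked in all 4 wild-type libraries. The others were marked in only 1 to 3 of them. The region chr11:5014461-5016982 had 0 bp in both slr1 libraries, 2280 and 2397 bp in GA, and 2386 and 2522 bp in CK.

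In windows of 100 kb the difference was patchy. In chr11:5000001-5100000 peaks covered 0 kb in both slr1 libraries, 3.46 and 5.59 kb in GA, and 4.85 and 5.79 kb in CK. In chr11:5900001-6000000 they covered 0.290 and 0.244 kb in slr1, 8.89 and 7.09 kb in GA, and 7.66 and 10.4 kb in CK. Between these, chr11:5400001-5500000 had 15.8 and 13.4 kb in slr1, 11.5 and 11.2 kb in GA, and 12.9 and 12.7 kb in CK, so slr1 was the higher there. Near the end of the stretch chr11:6200001-6300000 had 25.9 and 21.7 kb in slr1, 22.0 and 22.5 kb in GA, and 21.6 and 23.2 kb in CK, with overlapping groups.

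**Figure D4:**
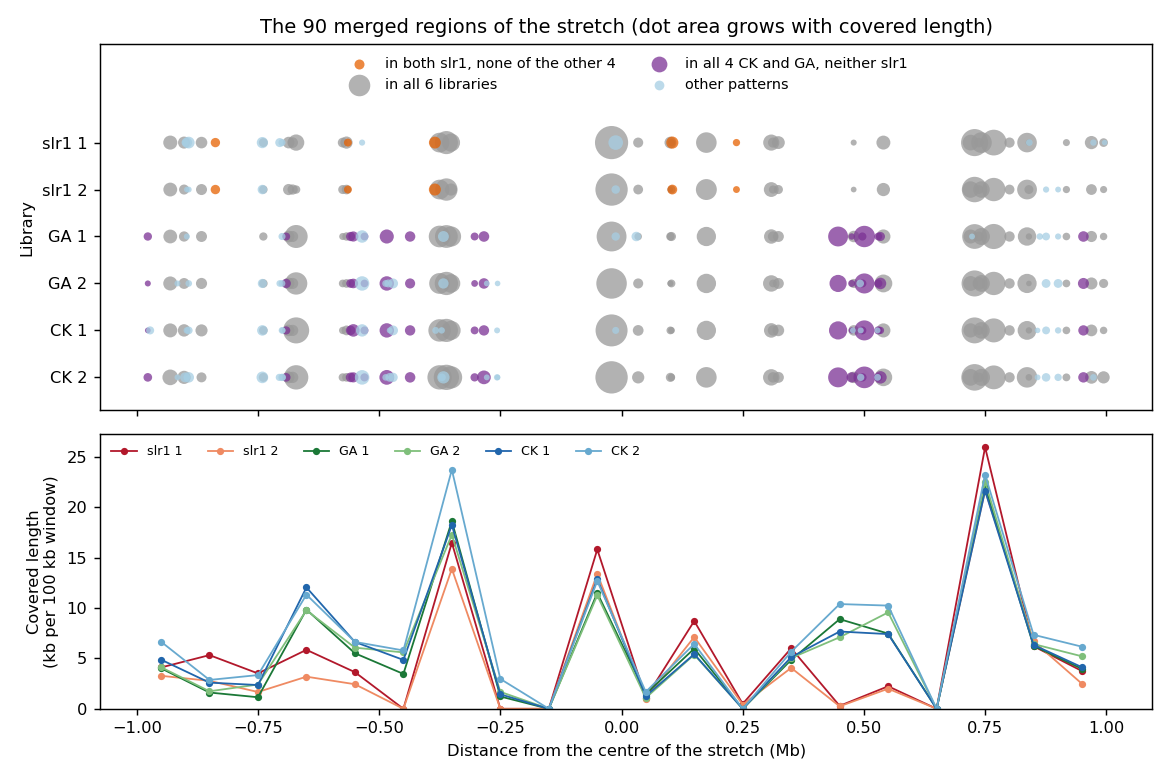
Upper panel, the 90 merged regions of the stretch by distance from its centre (Mb), 1 row per library, with a dot where the library has a peak and dot area growing linearly with covered length. Lower panel, covered length per 100 kb window (kb) for the same libraries. Purple dots are the 16 regions marked in all 4 CK and GA libraries and neither slr1 library. Orange dots are the 5 marked in both slr1 libraries and none of the other 4.

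The 5 regions with the mark in both slr1 libraries alone lay among the others. In chr11:5114157-5115779 peaks covered 1589 and 1623 bp in slr1, with folds of 3.74 and 3.53, and 0 bp in each GA and CK library. In chr11:5603956-5605600 they covered 1645 and 1022 bp in slr1, with folds of 2.36 and 2.44, and again 0 bp in the other 4. The windows of 1 Mb from 5 to 6, 8 to 9 and 15 to 16 Mb held 3 regions of this pattern each, as did 1 window of chromosome 12, and no window held more.

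At the edges, the end of the stretch did not coincide with an end of the difference, and its start was less clear. The first region inside, chr11:4522404-4523165, and the last region outside before it, chr11:4481683-4482541, both had a peak in all 4 wild-type libraries and in neither slr1 library. The region outside was weak, with 229 to 631 bp and folds of 1.92 to 2.10 in the wild-type libraries. The lowest fold of any chromosome 11 peak in CK was 1.82 and 1.84, so this region does not show where the difference starts. Just past the end, chr11:6514215-6523833 had 1698 and 1863 bp in slr1, 7544 and 8111 bp in GA, and 9194 and 9546 bp in CK. It was marked in all 6 libraries and shorter in slr1.

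Agreement between libraries was measured as the Jaccard index, the length covered in both libraries divided by the length covered in either. In the stretch it was 0.730 between the slr1 libraries, 0.50 to 0.563 between slr1 and CK libraries, and 0.531 to 0.550 between slr1 and GA libraries. It was 0.731 to 0.779 between GA and CK libraries there. In the rest of the chromosome it was 0.696 between the slr1 libraries, 0.70 to 0.745 between slr1 and CK, and 0.741 to 0.769 between GA and CK. Between slr1 and GA libraries it was 0.670 to 0.712 in the rest. The CK pair stood at 0.749 in the stretch and 0.807 in the rest, and the GA pair at 0.774 and 0.766. On the other chromosomes the slr1 pair had 0.720, near its 0.730 in the stretch. The slr1 libraries had a lower index with the other 4 in the stretch than in the rest, but the stretch was selected on the slr1 difference.

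Outside the stretch, peaks covered 2.24 and 1.68 Mb in slr1, 1.75 and 1.87 Mb in GA, and 1.97 and 2.16 Mb in CK. The mean was 1.96 ± 0.394 Mb in slr1 and 2.06 ± 0.133 Mb in CK (SD, n = 2 each), a difference of -0.101 Mb (exact permutation test, 2-sided, p = 1). The groups overlapped, and without slr1 replicate 2 the difference was 0.178 Mb. Fold outside the stretch was 3.58 ± 0.277 in slr1 and 4.11 ± 0.103 in CK (SD, n = 2 each), a difference of -0.52 (exact permutation test, 2-sided, p = 0.333). The groups did not overlap, but 0.333 is the smallest p that 2 against 2 libraries can give.

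The comparison of GA with CK asked whether the mark changes within hours of the hormone. In GA, covered length outside the stretch was 1.81 ± 0.0831 Mb, against 2.06 ± 0.133 Mb in CK (SD, n = 2 each), a difference of -0.252 Mb (exact permutation test, 2-sided, p = 0.333). Fold there was 3.79 ± 0.282 in GA and 4.11 ± 0.103 in CK, a difference of -0.31 (exact permutation test, 2-sided, p = 0.333). Neither group overlapped with the other in either measure. Both GA libraries covered less than both CK libraries in 24 of the 30 windows (80.0%, against 73.4% over all windows), a share near the background. In 1 window, that from 12 to 13 Mb, both GA libraries covered more than both CK libraries (0.264% over all windows). Scaled by the other chromosomes, both GA libraries were below both CK libraries in 6 windows (20%, against 23.5%) and above them in 4 (13.3%, against 20.6%).

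Few regions separated GA from CK. On chromosome 11, 9 regions were marked in both GA libraries and neither CK library (0.606% over all regions), none of them in the stretch. Another 35 were marked in both CK libraries and neither GA library (2.90% over all regions), 6 of them in the stretch. Over the chromosome those shares, 0.662% and 2.58%, were near the background. In the stretch the 6 were 6.67% of its regions, against 2.29% in the rest of the chromosome. None of these 6 had a peak in either slr1 library, so they are also among the 23 stretch regions of both CK and neither slr1 library. Leaving out any 1 library raised the chromosome counts of 9 and 35 to between 18 and 51 and to between 58 and 102. The largest of the 9, chr11:8285321-8287205, had 773 and 727 bp in GA and 0 bp in both CK libraries, and the largest of the 35, chr11:20940015-20941426, had 0 bp in both GA libraries and 576 and 1367 bp in CK.

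RNA gave a measure that the peaks did not choose. Genes of chromosome 11 were taken as those whose identifier begins with LOC_Os11g, and 5.17% to 5.85% of the reads assigned in slr1 and WT libraries fell on them, as did 6.84% to 7.03% in GA and CK libraries. A call needed a limma adjusted p under 0.05 and at least a log2 fold change of 1 in size, on the log2(value + 1) scale, which understates the change of low genes. In whole seedlings, fewer cells of a type and less RNA per cell cannot be told apart. In slr1 against WT, 118 of 1485 tested chromosome 11 genes rose (7.95%, against 6.57% of all tested genes) and 133 fell (8.96%, against 7.14%). Together they were 16.9% of those tested, against 13.7% of all tested genes, the highest share of the 12 chromosomes. Without WT replicate 3 the count of 251 was 150. The median log2 fold change was -0.02 on chromosome 11 and 0.01 over all genes.

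After 1 h of GA, 15 of 1329 tested chromosome 11 genes rose (1.13%, against 1.22% of all tested genes) and 18 fell (1.35%, against 0.996%). Together they were 2.48% of those tested, against 2.22% of all, a share near the background. Squared differences between replicates averaged 1.88 to 2.96 times the counting variance in the GA experiment. In the slr1 experiment they averaged 18.6 to 88.6 times. The spread behind the p-values thus differs between the experiments, and their shares of called genes are not comparable.

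Identifier numbers rise along a chromosome, but they were not matched to positions in Mb, so a block of identifiers cannot be equated with the stretch. In blocks of 2000 identifier numbers, the 3 from LOC_Os11g08000 to LOC_Os11g13999 had between 25% and 28.3% of their tested genes called in slr1. Block 22000 to 23999 also stood at 25%, with 3 of 12 tested genes called, and those from 30000 and from 2000 followed at 21.7% and 21.2%. In the 3 blocks together, 49 of 186 were called (26.3%), 14 higher and 35 lower in slr1, against 15.6% of the other tested chromosome 11 genes. Without WT replicate 3 the count was 32 of 176 (18.2%), against 9.27% of the others. These blocks were chosen after their values were seen. After GA, 1 of 168 tested genes of the same blocks was called (0.595%), against 2.76% of the others.

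**Figure D5:**
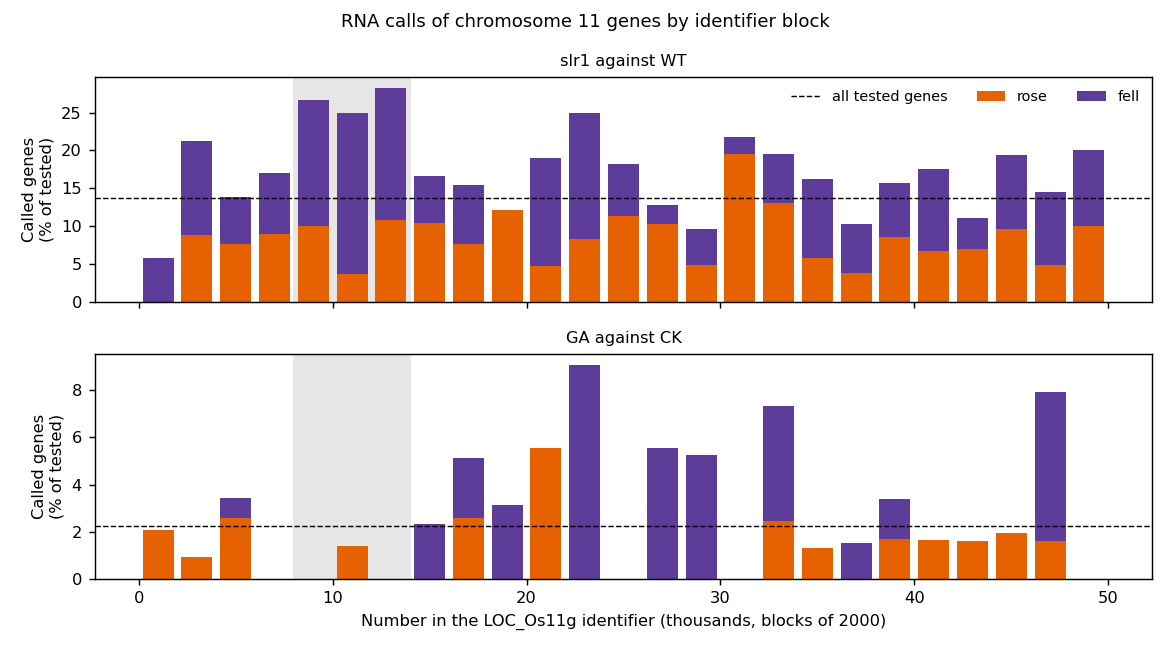
Percentage of tested chromosome 11 genes called as higher (orange) or lower (purple) in slr1 against WT (upper panel) and in GA against CK (lower panel), in blocks of 2000 identifier numbers. The dashed line is the share over all tested genes (13.7% and 2.22%), and the shaded blocks had 26.3% and 0.595% called.

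Some genes of these blocks were listed at or near 0 in 1 genotype. With a value of at least 10 in every library of 1 group and under 1 in every library of the other, 3 chromosome 11 genes were present in slr1 only, of 11 in all (0.0325% of all listed genes). Likewise 4 were present in WT only, of 9 in all (0.0266%). As shares of the listed chromosome 11 genes these were 0.135% for slr1 only and 0.180% for WT only. All 7 of the chromosome 11 genes lay in the same blocks, which hold 280 listed genes. The blocks were chosen after their slr1 calls were seen, and such genes can be among those calls. Their place in these blocks is therefore a description only. In the GA experiment chromosome 11 held 0 genes present in GA only (0.00320% of all listed genes) and 1 present in CK only (0.00639%), and neither pattern was found in these blocks.

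LOC_Os11g09590 had 1236, 1276 and 1428 normalised reads in slr1, against 7.75, 14.9 and 10.2 in WT, a log2 fold change of 6.82 (SE 0.25; limma adjusted p = 8.19e-05). LOC_Os11g11320 had 45.4, 46.0 and 40.8 normalised reads in slr1 and 0 in each WT library, at least 44.7-fold higher against a floor of 3 reads over the group (limma adjusted p = 0.000758). LOC_Os11g09979 had 0, 0.978 and 0 normalised reads in slr1, against 2130, 2822 and 2197 in WT, a log2 fold change of -10.88 (SE 0.33; limma adjusted p = 3.66e-05). The groups of these genes were far apart, with no overlap. LOC_Os11g11920 had 0 in each slr1 library, against 706, 735 and 724 normalised reads in WT, at least 710-fold lower against the same floor (limma adjusted p = 1.38e-05). These were the 2 largest rises and 2 largest falls among the called chromosome 11 genes whose groups did not overlap. The files pair none of these identifiers with a gene name.

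The largest changes after GA lay at other identifiers. LOC_Os11g26790 had 12.9, 11.7 and 17.8 normalised reads in GA, against 418, 394 and 402 in CK, a log2 fold change of -4.77 (SE 0.17; limma adjusted p = 1.95e-20). LOC_Os11g47590 had 0 in each GA library, against 14.5, 20.5 and 18.7 in CK, at least 18.7-fold lower against a floor of 3 reads over the group. LOC_Os11g39530 had 56.8, 35.0 and 47.1 normalised reads in GA and 12.4, 14.0 and 12.1 in CK, a log2 fold change of 1.75 (SE 0.28; limma adjusted p = 6.98e-06). LOC_Os11g47950 had 21.4, 13.6 and 17.8 in GA, against 1.03, 3.73 and 7.47 in CK, a log2 fold change of 2.08 (SE 0.49; limma adjusted p = 0.00126). The groups of these 4 did not overlap, which the rule for naming them required.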

How the data were processed

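Per the submitters' processing notes, the H3K27me3 tools were Trim Galore 0.6.6, Bowtie2 2.4.4, deepTools 3.5.0 and MACS2 2.2.7.1, with no role stated. For RNA they name featureCounts 2.0.0, HISAT2, DESeq2 1.38.3 and DESeq. The authors deposited 1 broad peak list per library, with a fold (ratio) over background and a −log10 q for each peak. The deposited RNA values are a signal: the reads of a gene over the size factor of its library, in 2 tables normalized separately. Whole multiples within 0.01 of the smallest value were found for 100% of the values, giving 27778578 to 28010807 reads per library in the slr1 experiment and 17919838 to 20979965 in the GA experiment.

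Peaks were merged over the 6 lists, and covered length, fold and marked regions were computed in Python 3.11.15 (numpy 2.4.6, pandas 2.3.3). Covered length and fold outside the stretch were compared by an exact permutation test. RNA was tested with limma 3.58.1 (R 4.3.3) with a trend on log2(value + 1), over genes reaching 10 in 3 or more of the 6 libraries, with Benjamini-Hochberg adjustment over all genes. Both steps were tested on simulated data. edgeR 4.0.16 on recovered reads was an alternative. Intervals and floors cover counting error only.

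The regions, the stretch and the naming rules were chosen with earlier results of these data known. Named regions were those with the largest product of covered length and fold in their pattern. Named genes were the 2 largest rises and 2 largest falls without overlap. A reference gene table of another assembly matched 0 identifiers, and no sequence was read.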

Additional observations from a re-analysis of the deposited data

How the results depend on the processing

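Covered length outside the stretch, slr1 minus CK, was -0.101 Mb and turned to 0.0771 percentage points when taken as a share of the other chromosomes. Leaving out 1 library gave -0.380 to 0.178 Mb, positive without slr1 replicate 2. In the stretch, GA over CK in covered length was 0.883 and became 0.990 as a share of the other chromosomes, while slr1 over CK was 0.720 and stayed between 0.635 and 0.805 in every alternative run. The 78 regions in both CK and neither slr1 library were 91 to 188 with 1 library left out. At a −log10 q of at least 5 they were 127, with 12 of 46 regions in the stretch and 115 of 615 in the rest. The contrast between stretch and rest, 25.6% against 4.33% in the main run, was much smaller at that q. No share over all regions is given for that run. The 27 of the opposite pattern were 17 when at least 50% of a region had to be covered, 2 at the stricter q, and 33 to 175 with 1 library left out. The 35 regions in both CK and neither GA library were 58 to 102 with 1 library left out. The 9 of the opposite pattern were 5 at 50% covered, 4 at the stricter q and 18 to 51 with 1 library left out. In RNA, the 251 slr1 calls were 150 to 229 with 1 library left out, lowest without WT replicate 3, and the 33 GA calls were 56 with no filter on low values and 25 to 33 with 1 library left out. The 8 named genes kept their direction and their call in all 73 refits in which they were tested. LOC_Os11g11320, LOC_Os11g09979, LOC_Os11g11920, LOC_Os11g47950 and LOC_Os11g47590 failed the filter on low values whenever a library of their higher group was left out. Those runs thus did not check their calls. The causes were not tested beyond the smaller number of samples.

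With the replicate number as a block, the slr1 and GA differences in covered length outside the stretch remained -0.101 and -0.252 Mb (exact permutation of the pairs, p = 1 and 0.5, the smallest that 2 pairs allow being 0.5), and the RNA counts were 232 and 32. Crossed numbers, added after the data were seen, gave 0 of 2 slr1 tests past the threshold. Deviations of same-numbered libraries over the 689 shared regions outside the stretch correlated at -0.253 between slr1 and CK and at 0.144 between GA and CK. Not every RNA library correlated best with its own number, so the libraries share only a number. The 4 tests on 2 against 2 libraries cannot pass 0.05. Depth behind the peaks is unknown and limits what an absent peak shows.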
